A study of Mus musculus with 56 samples.

Results

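Elavl1 encodes HuR, the RNA-binding protein whose gene was floxed in the knockout mice. It was examined here together with 9 other genes for proteins that act on the 3′ ends of mRNAs, namely Tia1, Tial1, Khsrp, Zfp36, Zfp36l1, Zfp36l2, Cpeb3, Pabpc1 and Pum2. The members were chosen by gene symbol, and all 10 were found among the 57010 genes of the count table. The samples were gastrocnemius muscles, the large calf muscle, from female and male mice of 20 to 22 weeks. Knockout mice carried a floxed Elavl1 gene together with Cre recombinase driven by the Mlc1f promoter, which is active in skeletal muscle fibres. The labels set control mice apart from mice with the floxed gene, and all mice, controls included, carried a GFP-tagged L10A ribosomal protein that Cre switched on. Each mouse gave ribosomal RNA, isolated with the tagged ribosomes, and total RNA from the whole homogenate, so that there were 8 groups of 7 libraries: female knockout, female control, male knockout and male control, each as ribosomal and as total RNA. Cells other than fibres keep Elavl1 in this model and are part of the homogenate. In such bulk samples, fewer cells of a type and less RNA per cell cannot be told apart.

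AU-rich elements are stretches of A and U in the 3′ ends of many short-lived mRNAs. HuR binds them and is known for keeping mRNAs stable and translated, while the Zfp36 family (tristetraprolin and its relatives) and Khsrp recruit the enzymes that shorten the poly(A) tail and degrade the message. Tia1 and Tial1 hold back translation and gather in stress granules, and Pabpc1 coats the poly(A) tail that the decay enzymes remove. Cpeb3 and Pum2 are translational repressors that bind other 3′ end sequences (a U-rich motif and the Pumilio motif) rather than the AU-rich element itself. HuR is known in cultured muscle cells for binding the mRNAs of myogenic factors.

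The 3′ ends of 4 members hold the AU-rich nonamer TTATTTATT, letters that the Zfp36 proteins are known to bind, and its sites are shown because they set these 4 apart from the other members. In the longest annotated 3′ end of each gene (GENCODE M21, GRCm38), the nonamer was counted on the transcript strand with overlapping matches allowed. It occurred 8 times in Elavl1 and once each in Zfp36, Zfp36l1 and Zfp36l2, and it was not found in the annotated ends of the other 6 members. Of 19857 genes with an annotated end of at least 100 bases, 8.01% hold it. Windows of 30 bases around 1 site of each of the 4 genes and of Cpeb3, whose genotype difference is described further on, follow with the nonamer (or, for Cpeb3, the pentamer ATTTA) in capitals.
Elavl1 (GRCm38 chr8:4285775-4285804, minus strand): atTTATTTATTTATTTATTtTTATTTATTt
Zfp36 (GRCm38 chr7:28376950-28376979, minus strand): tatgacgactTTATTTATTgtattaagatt
Zfp36l1 (GRCm38 chr12:80108166-80108195, minus strand): aactgttggaTTATTTATTttagaaattct
Zfp36l2 (GRCm38 chr17:84184913-84184942, minus strand): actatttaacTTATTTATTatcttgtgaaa
Cpeb3 (GRCm38 chr19:37024695-37024724, minus strand): attattattatcATTTAcagtcatattact
The Elavl1 window holds nonamers that overlap each other and 1 that stands apart, whereas the Zfp36, Zfp36l1 and Zfp36l2 sites stand alone. The pentamer occurs in the ends of 68.2% of all genes, at a median of 1.35 per kb. Its density was 6.83 per kb in Pabpc1, whose annotated end has only 439 bases, 4.90 in Zfp36l1, 4.03 in Elavl1, 3.88 in Zfp36 and 3.5 in Pum2. It was lowest in Khsrp, at 0.609 per kb, and Tial1, at 1.09, both under the median of all genes. These are matches of letters and not measured binding sites.

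Libraries were made with a 3′ end kit, so a gene's count reports its 3′ end and carries no length. Ribosomal libraries held 160313 to 3579221 gene counts and total libraries 2427655 to 5848058. Ribosomal libraries of female knockouts had the lowest median depth, with 491405 to 1207021 counts, against 422756 to 3058801 in female controls. All 6 muscle fibre markers examined, such as Acta1, were detected in each group, with summed medians of 62160 to 107200 CPM (counts scaled to library size, on 1 scale for all libraries) in ribosomal RNA and 27240 to 33770 CPM in total RNA. Several libraries stood apart: male knockout ribosomal 2 was the shallowest, male knockout ribosomal 1 and male knockout total 6 held over 100 CPM of kidney markers, and over 19% of reads fell outside genes in female knockout total 9, female control total 14 and male control total 25, 26 and 27. Without the 2 libraries with kidney markers the differences between knockouts and controls described below for Zfp36 in male total RNA (log2 fold change −0.40, adjusted p = 0.0537 by edgeR) and for Cpeb3 in female ribosomal RNA (−0.30, adjusted p = 0.0528) no longer passed the threshold of 0.05. Female knockout ribosomal libraries also differed from female controls in markers of cells other than fibres: all 6 fibroblast markers were called higher, with a summed median of 471 CPM against 224 CPM. Summed medians were also higher for Schwann (64.9 against 18.9 CPM), endothelial (62.8 against 35.0 CPM), immune (48.0 against 24.5 CPM) and satellite cell markers (32.0 against 21.1 CPM). The same held for liver markers (90.7 against 43.45 CPM) and for the muscle fibre markers themselves (107200 against 77600 CPM). Mitochondrially encoded mRNAs, which do not mark a cell type, had summed medians of 13780 CPM against 2832 CPM. In male ribosomal RNA none of the 6 fibroblast markers was called, with summed medians of 288 CPM in knockouts and 227 CPM in controls. In total RNA, fibroblast markers were called higher in female knockouts (4 of 6) and in male knockouts (6 of 6), and all 5 erythroid markers were called higher in knockouts of both sexes and RNA types. None of these fibroblast or erythroid markers was at 0 in all libraries of a group. Their part in the results below was not tested.

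Knockout mice were first set against control mice within each sex and RNA type, which asks whether removal of HuR from fibres goes along with a change of HuR's own message or of the other 3′ end binding proteins. Cpeb3 was lower in knockouts in all 4 comparisons, Tia1 and Zfp36 were lower in male total RNA, and Pabpc1 was higher in female ribosomal RNA. Genes were called at an adjusted p under 0.05 (edgeR's quasi-likelihood test, Benjamini-Hochberg adjustment over all genes tested). In female ribosomal RNA 2 of the 9 members tested were called, beside 16.8% of all genes, and in male ribosomal RNA 1 of 9, beside 8.96%. In total RNA 1 of 10 was called in females, beside 8.49% of all genes, and 3 of 10 in males, beside 14.2%. The first 3 of these shares of members lie near the background. The median log2 fold change over the members tested was −0.08 in female ribosomal RNA, −0.19 in male ribosomal RNA, −0.08 in female total RNA and −0.18 in male total RNA, against medians over all genes of −0.02, −0.01, 0.01 and 0.00. Zfp36l2 had too few ribosomal counts to be tested there.

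**Figure D1:**
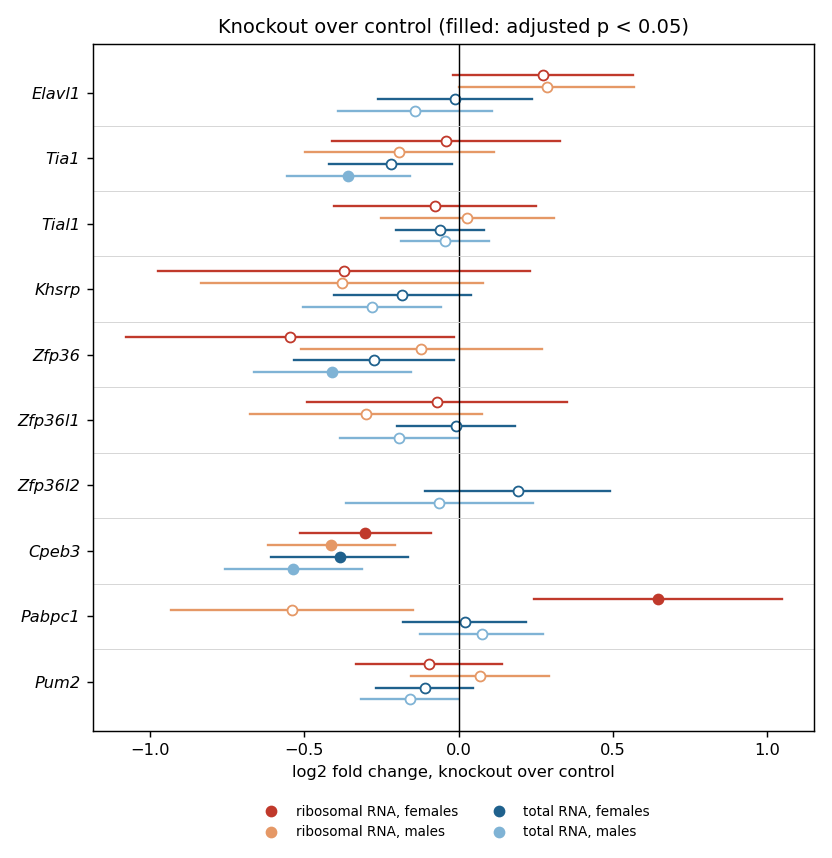
Log2 fold change of each member, knockouts over controls, with approximate 95% intervals (lines), in ribosomal and total RNA of each sex (n = 7 and 7 libraries). Filled points have an adjusted p under 0.05. Cpeb3 lies left of 0 in all 4 comparisons, and Pabpc1 lies on opposite sides of 0 in ribosomal RNA of females and males.

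Elavl1 (ENSMUSG00000040028) passed the test in none of the 4 comparisons of libraries labelled knockout with controls. In female ribosomal RNA its level was 91.1, 123 and 164 CPM (lowest, median and highest of 7) in knockouts and 81.0, 101 and 131 CPM in controls. The ribosomal level in males was 51.9, 81.6 and 116 CPM in knockouts and 55.2, 72.3 and 81.3 CPM in controls. The groups overlapped in both sexes, although 2 of 7 female and 4 of 7 male knockout libraries lay above all controls of their sex. The log2 fold changes were 0.27 (SE 0.15, adjusted p = 0.206) in females and 0.29 (SE 0.14, adjusted p = 0.234) in males, and neither passed the test. In total RNA Elavl1 averaged 71.0 ± 7.21 CPM in female knockouts and 71.2 ± 13.7 CPM in female controls, and 67.9 ± 11.8 CPM in male knockouts and 74.3 ± 14.1 CPM in male controls (SD, n = 7 each). Those fold changes were −0.01 (approximate 95% interval −0.26 to 0.24, adjusted p = 0.969) and −0.14 (−0.39 to 0.11, adjusted p = 0.477). The position of the floxed exons is not given in the sources used here. Because the counts come from the 3′ end, they need not lie within the deleted part, and these levels therefore do not check the labels. The related genes Elavl2, Elavl3 and Elavl4, which are mainly neuronal, had 176, 118 and 122 counts over all 56 libraries and were too low to test.

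Elavl1 differed by sex in ribosomal RNA. Males were lower than females both in knockouts, at 80.2 ± 21.5 CPM against 123 ± 24.8 CPM, and in controls, at 69.6 ± 9.85 CPM against 106 ± 17.7 CPM (mean ± SD, n = 7 each). Of the male libraries, 5 of 7 knockouts and 6 of 7 controls lay below every female library of the same genotype. The log2 fold changes, male over female, were −0.62 (SE 0.15, adjusted p = 0.00222) in knockouts and −0.63 (SE 0.15, adjusted p = 0.00438) in controls. Both remained called in every alternative processing tried. The genotype effect on Elavl1 did not differ detectably between the sexes (males minus females 0.01, approximate 95% interval −0.39 to 0.41, adjusted p = 0.989). In controls none of the 6 fibroblast markers and none of the 6 mitochondrially encoded mRNAs tested differed between the sexes in ribosomal RNA, whereas in knockouts all 6 of each were lower in males. In total RNA the sexes overlapped, with fold changes of −0.09 in knockouts and 0.04 in controls, adjusted p = 0.812 and 0.890.

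**Figure D2:**
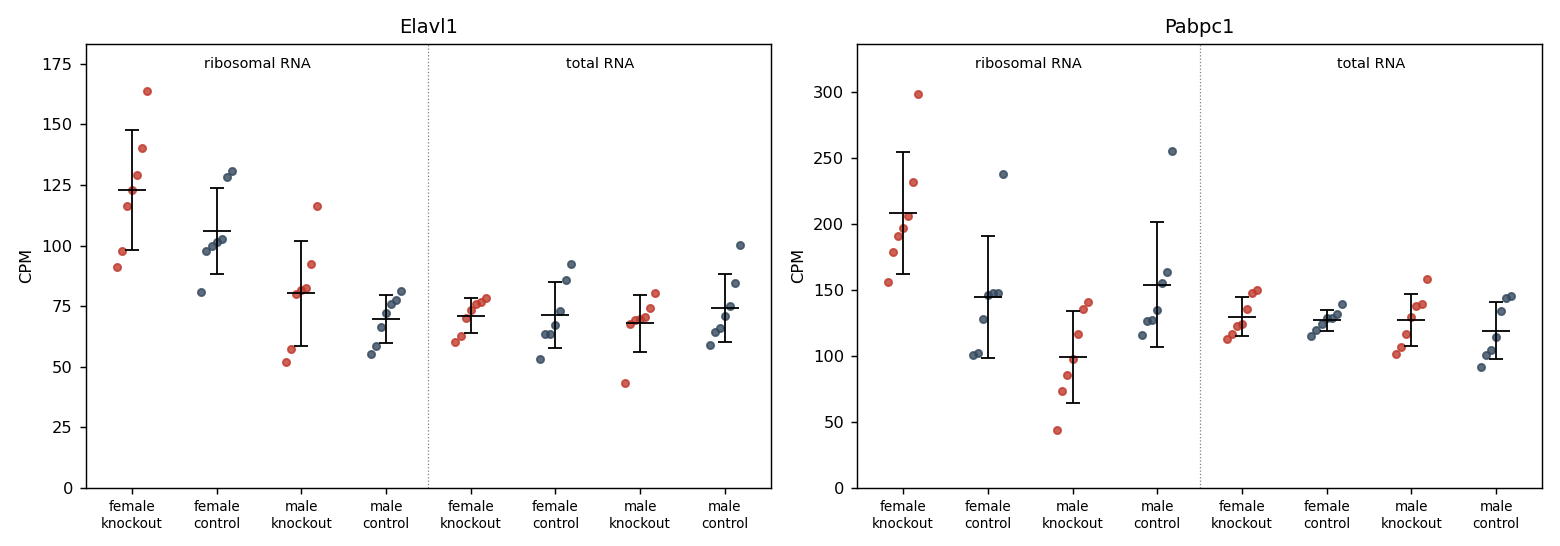
CPM of Elavl1 and Pabpc1 in each library (points), with mean and SD (bars), for the 8 groups (n = 7 each). Ribosomal Elavl1 is higher in females of both genotypes, whereas ribosomal Pabpc1 stands highest in female knockouts (156 to 299 CPM) and lowest in male knockouts (43.7 to 141 CPM).

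In order of mean CPM, the 8 groups ran from female knockout ribosomal RNA (123) and female control ribosomal RNA (106) to male knockout ribosomal RNA (80.2) and then to 5 groups between 67.9 and 74.3. Only the step from female control to male knockout ribosomal RNA exceeded the larger of the neighbouring SDs. The genes whose log2 CPM followed that of Elavl1 most closely over the 56 libraries, among 7851 genes with a mean of at least 10 CPM, were Rabgef1 and Fam98b (Pearson r = 0.757 each), Akr7a5 (0.747), and Nup88 and Zbtb44 (0.744 each). These correlations describe libraries that share RNA type, sex and scaling.

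Of Tia1 and Tial1, a pair of related proteins that silence translation, Tia1 was called by genotype in male total RNA only and Tial1 in no comparison. The genes were not tested against each other. Tia1 in male total RNA was at 38.9, 50.3 and 57.8 CPM (lowest, median and highest) in knockouts and at 53.9, 60.5 and 73.8 CPM in controls. The ranges overlapped, with 5 of 7 knockouts below all controls. Its log2 fold change of −0.36 (SE 0.10) passed the test (adjusted p = 0.0189). The call was lost without male knockout total 13, the library whose title and RNA type label differ (−0.31, adjusted p = 0.05), and without those 5 total libraries rich in reads outside genes (−0.26, adjusted p = 0.181), and held in the other 34 of 36 alternatives (0.00929 at the lowest). In female total RNA Tia1 averaged 50.9 ± 7.99 CPM in knockouts and 58.8 ± 5.56 CPM in controls (SD, n = 7 each), a fold change of −0.22 that did not pass (adjusted p = 0.180). The effects of the sexes did not differ detectably in total RNA (males minus females −0.14, adjusted p = 0.807). Tial1 stayed between −0.08 and 0.03 in the 4 genotype comparisons, with adjusted p from 0.672 to 0.943. In total RNA the approximate 95% intervals of Tial1 were −0.20 to 0.08 in females and −0.19 to 0.10 in males.

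**Figure D3:**
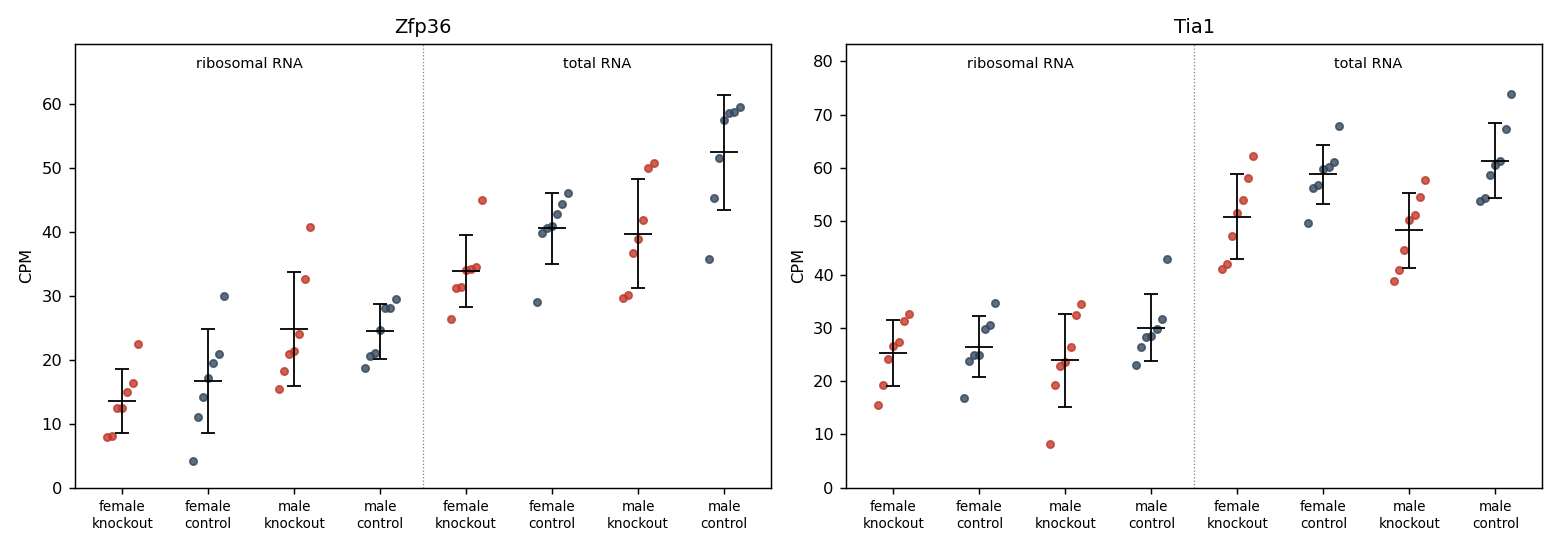
CPM of Zfp36 and Tia1 in each library (points), with mean and SD (bars), for the 8 groups (n = 7 each). In total RNA the male knockouts lie lower than the male controls for both genes, with overlapping ranges, and both genes are lower in ribosomal than in total RNA.

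Among the decay-promoting members, Zfp36 was the one called. Zfp36 (tristetraprolin) in male total RNA was at 29.8, 38.9 and 50.8 CPM in knockouts and at 35.9, 57.5 and 59.6 CPM in controls. The groups overlapped, with 2 of 7 knockouts below all controls. The log2 fold change was −0.41 (SE 0.13, adjusted p = 0.0330). This call was lost in 13 of 36 alternatives (adjusted p 0.011 to 0.109 over all of them, the direction unchanged), among them limma-voom, the omission of any one of male knockout total 1, 2, 6, 12 or 13 or male control total 23, 26 or 27, and the omission of those 5 total libraries (−0.38, adjusted p = 0.109). Female Zfp36 was also at lower values in knockouts without passing, ribosomal at −0.55 (adjusted p = 0.165) and total at −0.27 (adjusted p = 0.200).

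Zfp36l1 was at 62.1, 88.1 and 109 CPM in male knockout total RNA and at 89.5, 96.3 and 118 CPM in male controls. With 4 of 7 knockouts below all controls, the fold change of −0.19 did not pass (adjusted p = 0.182). Among male ribosomal libraries 6 of 7 knockouts lay below all controls, at −0.30 (adjusted p = 0.364). Zfp36l2 was low, with 5.79 to 11.9 CPM in knockout and 4.68 to 9.58 CPM in control libraries of total RNA, and it was not called (0.19 in females and −0.06 in males). Khsrp, the KH-domain protein that also recruits decay enzymes, had negative fold changes in all 4 comparisons, from −0.38 to −0.18, and none passed (adjusted p 0.0918 to 0.433). Khsrp came nearest in male total RNA, at 17.9 ± 3.85 CPM in knockouts and 21.3 ± 2.12 CPM in controls (SD, n = 7 each), with 5 of 7 knockouts below all controls. There it was called by limma-voom (−0.34, adjusted p = 0.0401) and in edgeR without male knockout total 1 (−0.36, adjusted p = 0.0224). Antisense or overlapping genes are annotated for Elavl1, Khsrp, Zfp36, Zfp36l1, Zfp36l2 and Cpeb3, and the strand setting of the counting is not given in the sources used here. These overlaps are of whole gene spans, introns included, so exons need not be shared. Where exons are shared, reads of such partners cannot be told apart from those of the members if strand was not used. Reads set aside as ambiguous made up 0.417% to 0.653% per library. Tia1 and Cpeb3 also overlap a gene on their own strand (Gm44790 and Gm22714), whose reads strand would not separate where exons are shared.

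In ribosomal RNA, Zfp36 and Zfp36l1 differed between the sexes in knockouts. Zfp36 averaged 24.8 ± 8.92 CPM in male knockouts and 13.6 ± 5.05 CPM in female knockouts, higher in males by 0.75 on the log2 scale (SE 0.26, adjusted p = 0.0258), with 3 of 7 males above all females. Zfp36l1 went the other way, at 16.9 ± 5.61 CPM against 27.2 ± 10.1 CPM (SD, n = 7 each), a fold change of −0.60 (SE 0.22, adjusted p = 0.0335). With Elavl1 and Pabpc1, these made 4 of 9 members called between male and female knockouts, beside 33.7% of all genes. In control mice Elavl1 was the 1 of 9 called, beside 7.63%. The Zfp36 call was lost without female knockout ribosomal 1 or 10 or male knockout ribosomal 10 (adjusted p 0.0642 to 0.0765). The Zfp36l1 call was lost without female knockout ribosomal 2, 5 or 12 or male knockout ribosomal 12, 13 or 14 (adjusted p 0.0546 to 0.168), without the filter on low counts (−0.50, adjusted p = 0.127) and with limma-voom (−0.49, adjusted p = 0.0633). In total RNA no member was called between the sexes in either genotype by edgeR, DESeq2 or limma-voom, beside 2.86% of all genes in knockouts and 8.70% in controls. At an unadjusted p under 0.05 there were 0 members in knockouts and 2 in controls, Zfp36 (0.35) and Cpeb3 (0.25). Zfp36 in controls passed without male control total 20 (0.43, adjusted p = 0.0258).

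Cpeb3, which represses translation through U-rich 3′ end motifs, was the member with the most regular difference by genotype. In female ribosomal RNA it was at 139, 222 and 249.7 CPM (lowest, median and highest) in knockouts and at 241, 258 and 313 CPM in controls. Ribosomal Cpeb3 in males was at 179.7, 209.6 and 242 CPM in knockouts and at 259, 272 and 338 CPM in controls. All 7 male knockout libraries and 6 of 7 female ones lay below every control of their sex, with overlap limited to 1 female knockout. The log2 fold changes were −0.30 (SE 0.11, adjusted p = 0.0496) in females and −0.41 (SE 0.10, adjusted p = 0.00943) in males.

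In total RNA Cpeb3 was at 119, 157 and 170.3 CPM in female knockouts and at 170.3, 186 and 226 CPM in female controls. Male knockouts had 127, 164 and 189 CPM and male controls 186, 219 and 312 CPM. Here 7 of 7 female and 6 of 7 male knockout libraries lay below all controls of their sex. The log2 fold changes were −0.39 (SE 0.11, adjusted p = 0.0305) in females and −0.54 (SE 0.11, adjusted p = 0.00301) in males. The fall was not detectably different between the sexes (males minus females, ribosomal −0.11 with adjusted p = 0.718, total −0.15 with adjusted p = 0.812).

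The direction of the Cpeb3 difference was negative in every alternative. The female ribosomal call lay at the threshold and was lost in 25 of 36 alternatives (adjusted p 0.022 to 0.144). Of the 28 fits that left out 1 library, it passed in those without female knockout ribosomal 5 or 6, male knockout ribosomal 2, female control ribosomal 17 or 19, or male control ribosomal 20 or 21. The male ribosomal call was lost without the filter on low counts (−0.43, adjusted p = 0.0573; 0.000209 to 0.0573 over all alternatives). The female total call was lost without female knockout total 1 or 10 or female control total 14, 15 or 19 (adjusted p 0.0519 to 0.0737). Without those 5 total libraries, 3 of which are male controls, the male total fold change was −0.30 (adjusted p = 0.0894; 0.000269 to 0.0894 over all alternatives). In that fit 645 genes were called in place of 1824, and no member was.

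**Figure D4:**
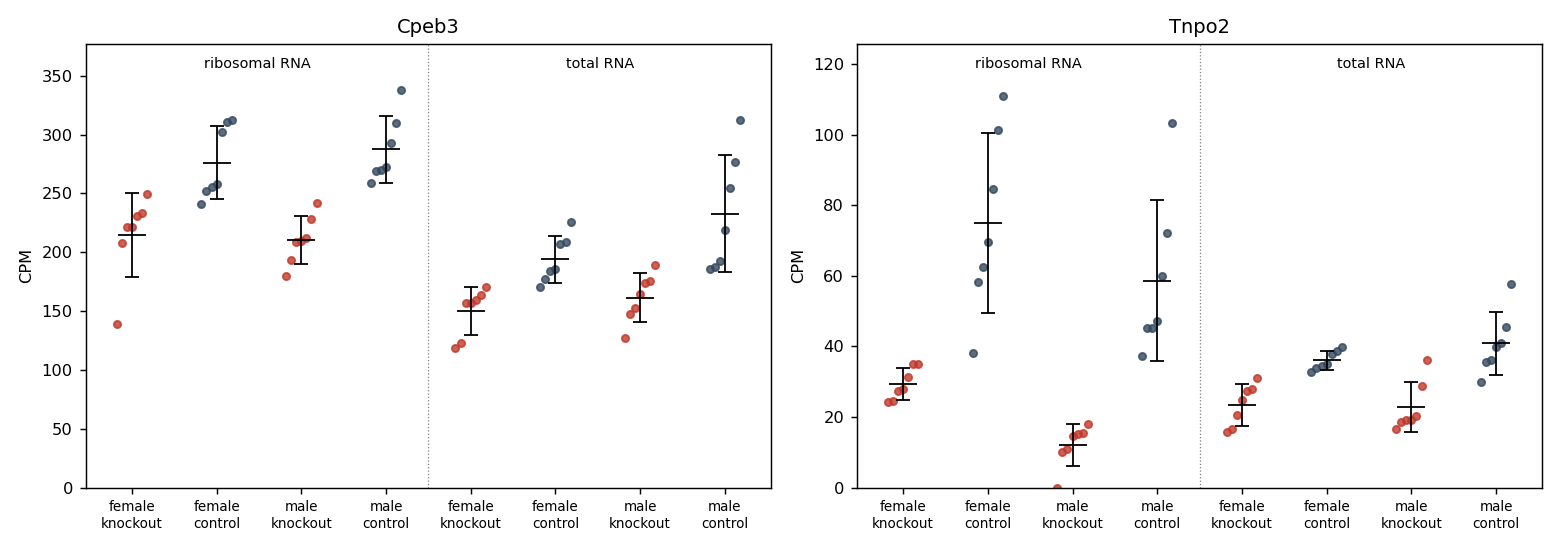
CPM of Cpeb3 and of Tnpo2, a nuclear import receptor for HuR, in each library (points), with mean and SD (bars), for the 8 groups (n = 7 each). Both genes are lower in knockouts than in controls of the same sex and RNA type, and ribosomal Tnpo2 is at 0 to 18.1 CPM in male knockouts against 37.4 to 103 CPM in male controls. The value of 0 is that of male knockout ribosomal 2, the shallowest library.

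Pum2, a Pumilio protein that represses mRNAs carrying the Pumilio motif, did not pass in any of the 4 comparisons. It averaged 118 ± 21.1 CPM in female knockout and 129 ± 24.4 CPM in female control ribosomal RNA, and 137.5 ± 13.2 CPM in male knockout and 132.8 ± 19 CPM in male control ribosomal RNA. In total RNA the averages were 142 ± 14.0 CPM in female knockouts and 152.5 ± 13.4 CPM in female controls, and 134 ± 14.7 CPM in male knockouts and 148 ± 9.25 CPM in male controls (SD, n = 7 each). The fold changes ran from −0.16 to 0.07, with adjusted p from 0.177 to 0.776. The largest in size, −0.16 in male total RNA, had an approximate 95% interval of −0.32 to −0.0023.

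Pabpc1, the cytoplasmic poly(A)-binding protein, was the member whose genotype effect differed between the sexes. In female ribosomal RNA it was at 156, 197 and 299 CPM (lowest, median and highest) in knockouts and at 100.3, 146 and 238 CPM in controls. Ribosomal Pabpc1 in males was at 43.7, 98.0 and 141 CPM in knockouts and at 116, 135 and 255 CPM in controls. The groups overlapped in each sex, with 1 of 7 female knockouts above all female controls and 4 of 7 male knockouts below all male controls. The log2 fold change was 0.64 (SE 0.20, adjusted p = 0.0267) in females and −0.54 (SE 0.20, adjusted p = 0.0872) in males. The difference between these effects, males minus females, was −1.19 (SE 0.29, adjusted p = 0.0185), and Pabpc1 was the 1 of 9 members called in this test, beside 3.43% of all genes. It passed in all 35 alternatives, from −1.32 to −1.04.

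All 7 male knockout ribosomal libraries lay below all 7 female ones for Pabpc1, with a fold change of −1.09 (SE 0.20, adjusted p = 0.000203). Among controls it was 0.09 (adjusted p = 0.837). In total RNA Pabpc1 averaged 130 ± 14.7 CPM in female knockouts, 127 ± 8.05 CPM in female controls, 127 ± 20.0 CPM in male knockouts and 119 ± 21.9 CPM in male controls (SD, n = 7 each). None of these total RNA differences passed, and the effects of the sexes differed by 0.05 (adjusted p = 0.939). In total RNA no member's genotype effect differed between the sexes by edgeR, DESeq2 or limma-voom, beside 0% of all genes, and 0 members had an unadjusted p under 0.05. The female ribosomal call of Pabpc1 was lost without female knockout ribosomal 9 or female control ribosomal 14, 15 or 16 (adjusted p 0.0559 to 0.083). The male ribosomal value passed without the filter on low counts (adjusted p = 0.00839) and in the fit of all 56 libraries (adjusted p = 0.0287). Female knockouts, where ribosomal Pabpc1 was highest, were also the group with the fibroblast and mitochondrial sums given above, whose part was not tested. Their ribosomal libraries had a median of 9.11% of reads outside genes, against 5.38% in female controls, 5.58% in male knockouts and 5.23% in male controls. No alternative left out ribosomal libraries by that share, and its part was not tested either. Pabpc1 has near-identical processed copies in the genome, and reads shared with them could have been lost or split in counting, so its level is uncertain.

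Ribosomal and total RNA of the same mice were compared next, which asks how each message is represented on fibre ribosomes relative to the whole muscle. The main fit compared group means without pairing by mouse, and the mouse as a block was an alternative. Zfp36l1, Zfp36 and Tia1 were lower in ribosomal RNA in all 4 groups of mice, and Cpeb3 was higher in all 4. Zfp36l2, with too few counts to be tested in ribosomal RNA alone, passed the filter here through its total RNA. Its lower ribosomal values are therefore not read as a result, although the counts of called members include it. Elavl1 was higher in ribosomal RNA in females of both genotypes and in male knockouts. All 10 members were called in female knockouts, beside 64.8% of all genes, 7 of 10 in male knockouts, beside 68.3%, 8 of 10 in female controls, beside 68.1%, and 5 of 10 in male controls, beside 70.7%. With 10 members these shares give no result about the members as a set. The median log2 fold change of all genes, ribosomal over total, was −0.25 in female knockouts, −0.06 in male knockouts, −0.12 in female controls and −0.09 in male controls. With RLE size factors in place of TMM it was −0.39, −0.31, −0.35 and −0.32, a shift of −0.14 to −0.25, so values relative to that median are given as well.

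**Figure D5:**
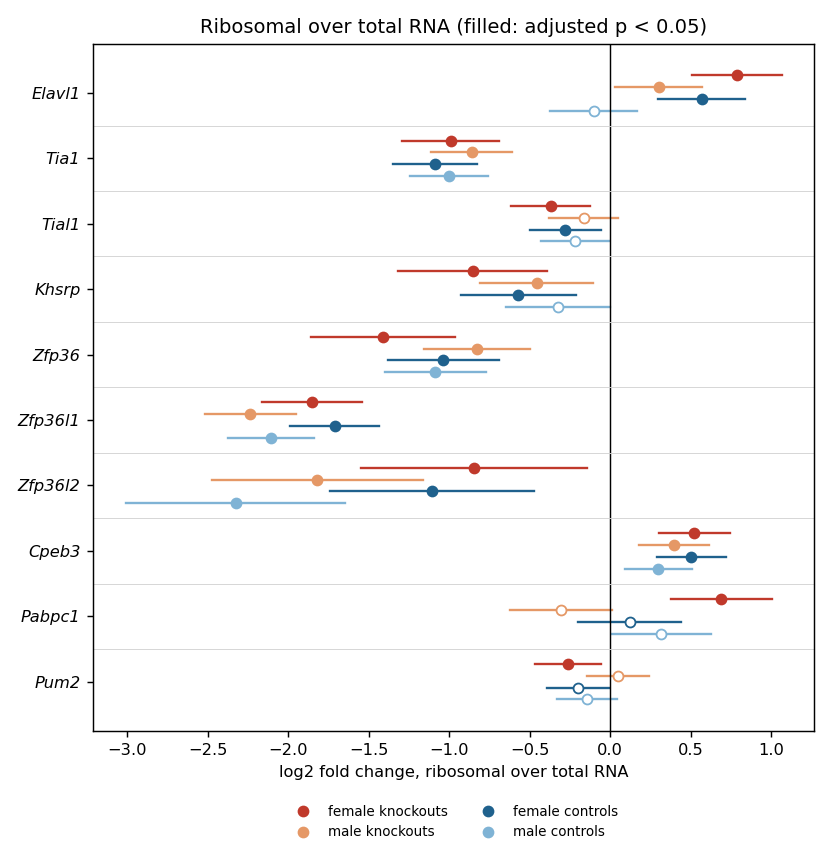
Log2 fold change of each member, ribosomal over total RNA, with approximate 95% intervals (lines), in the 4 groups of mice (n = 7 libraries of each RNA type). Filled points have an adjusted p under 0.05. The Zfp36 family and Tia1 lie left of 0, and Cpeb3 lies right of 0, in all 4 groups. Zfp36l2 passed the filter through its total RNA, and libraries were not paired by mouse.

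Zfp36l1 showed the most regular difference between RNA types. It averaged 27.2 ± 10.1 CPM in ribosomal and 96.0 ± 6.82 CPM in total RNA of female knockouts, and 16.9 ± 5.61 and 87.1 ± 14.0 CPM in those of male knockouts. In controls the ribosomal and total averages were 30.1 ± 6.85 and 95.8 ± 13.2 CPM in females, and 23.5 ± 3.35 and 98.2 ± 10.1 CPM in males (SD, n = 7 each). Every ribosomal library lay below every total library of its sex and genotype. The fold changes were −1.85, −2.24, −1.71 and −2.11 in female knockouts, male knockouts, female controls and male controls (SE 0.14 to 0.16), with adjusted p of at most 1.44e-15. Relative to the median of all genes they were −1.60, −2.18, −1.59 and −2.02.

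Zfp36 had fold changes of −1.41, −0.83, −1.04 and −1.09 in the same order of groups, and Tia1 −0.99, −0.86, −1.09 and −1.002, with adjusted p of at most 1.76e-05 for either gene. Every ribosomal library lay below every total library for Tia1. For Zfp36 that held for 7 of 7 libraries in female knockouts, 5 of 7 in male knockouts, 6 of 7 in female controls and 7 of 7 in male controls. Zfp36l2 held 0 to 11 counts in male ribosomal libraries and passed the filter through its total RNA. Its fold changes were −0.85, −1.82, −1.11 and −2.33. The first of these lost its call with the mouse as a block (−0.82, adjusted p = 0.0746), with limma-voom, and without those 5 total libraries (adjusted p 0.00993 to 0.0746 over its alternatives). Khsrp was called lower in female knockouts (−0.86), male knockouts (−0.46) and female controls (−0.57), and with RLE size factors also in male controls (−0.56, against −0.33 with TMM).

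In the same comparison muscle fibre markers had medians of 1.26 to 1.63 on the log2 scale, and fibroblast markers medians of −3.48 to −2.17, with all 6 called lower in each group. All 6 endothelial markers were called lower in each group as well, with summed medians of 62.8 CPM in ribosomal and 242.5 CPM in total RNA of female knockouts, 44.4 and 282 CPM in male knockouts, 35.0 and 284 CPM in female controls, and 39.1 and 266 CPM in male controls. These fibroblast and endothelial markers were thus lower in ribosomal RNA, as were Zfp36, Zfp36l1 and Tia1. Ribosomal sums of both marker types were higher in female knockouts than in female controls. Zfp36 (−1.41 against −1.04) and Zfp36l1 (−1.85 against −1.71) were further below total RNA in female knockouts. Tia1 (−0.99 against −1.09) and Zfp36l2 (−0.85 against −1.11) were less far below it there. For no member was the change of this ratio with genotype called in females. The part of the markers in these values was not tested.

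Cpeb3 was higher in ribosomal than in total RNA, by 0.52 in female knockouts, 0.40 in male knockouts, 0.50 in female controls and 0.30 in male controls (SE 0.11 each, adjusted p at most 0.0111). Ribosomal values lay above every total value in 6 of 7, 6 of 7, 7 of 7 and 1 of 7 libraries in that order. The male calls were lost with RLE size factors (0.16 and 0.08) and with DESeq2 (0.16 and 0.07), adjusted p 0.184 to 0.572, and the call in male controls also without the filter on low counts (0.23, adjusted p = 0.14). Relative to the median of all genes the values were 0.77, 0.46, 0.62 and 0.38 with TMM and 0.78, 0.46, 0.64 and 0.40 with RLE.

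Elavl1 was higher in ribosomal RNA by 0.79 in female knockouts (SE 0.14, adjusted p = 3.63e-06) and by 0.57 in female controls (SE 0.14, adjusted p = 0.000277). In male knockouts the difference was 0.30 (SE 0.14, adjusted p = 0.0473), which was lost with the mouse as a block (0.21, adjusted p = 0.173) and in 6 of 8 alternatives in all (adjusted p 0.0366 to 0.778), among them those without the shallowest library (0.29, adjusted p = 0.0571) and without the libraries with kidney markers (0.25, adjusted p = 0.134). It was −0.10 in male controls (adjusted p = 0.505), where it was called lower with RLE size factors (−0.33) and with DESeq2 (−0.33), and was 0.08 without those 5 total libraries (adjusted p = 0.659). Relative to the median of all genes these 4 values were 1.03, 0.36, 0.69 and −0.02 in female knockouts, male knockouts, female controls and male controls.

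After these values had been seen, the ribosomal over total ratio was compared between the sexes. For Elavl1 it was lower in males by 0.48 in knockouts (SE 0.20, adjusted p = 0.0788) and by 0.67 in controls (SE 0.19, unadjusted p = 0.00102, adjusted p = 0.175), and neither passed. With the mouse as a block the value in knockouts was −0.56 (adjusted p = 0.0453), and it also passed with RLE size factors, DESeq2 and limma-voom. The value in controls passed with limma-voom alone (−0.66, adjusted p = 0.0263). Pabpc1 in knockouts was the 1 of 10 members called, at −0.997 (SE 0.23, adjusted p = 0.00187), beside 17.4% of all genes. In controls no member was called by edgeR or DESeq2, beside 0.143% of all genes, and 3 had an unadjusted p under 0.05.

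Pabpc1 was higher in ribosomal than in total RNA in female knockouts, by 0.69 (SE 0.16, adjusted p = 0.000195), with every ribosomal library above every total one. In the other 3 groups its values were −0.31 in male knockouts, 0.12 in female controls and 0.32 in male controls, not called. With RLE size factors the value was −0.55 in male knockouts, called lower, and −0.09 in female controls. With the mouse as a block it was called lower in male knockouts (−0.40, adjusted p = 0.0137) and higher in male controls (0.33, adjusted p = 0.0322). Tial1 was called lower in female knockouts (−0.37) and female controls (−0.28), the second lost with the mouse as a block (−0.27, adjusted p = 0.0778) and without the 5 total libraries rich in reads outside genes (−0.24, adjusted p = 0.0568). In male controls Tial1 (−0.22) was called lower without the shallowest library (−0.23), without the 2 libraries with kidney markers (−0.24), without those 5 total libraries (−0.28) and with limma-voom (−0.22). Relative to the median of all genes Tial1 lay between −0.16 and −0.11 in all 4 groups, although with RLE size factors it was called lower in male knockouts (−0.41) and male controls (−0.45) as well. Pum2 was called lower in female knockouts (−0.26), and with the mouse as a block in female controls (−0.23, adjusted p = 0.0491). With RLE size factors it was called lower in controls of both sexes (−0.42 in females and −0.38 in males). In female controls it was also called without the shallowest library and without those with kidney markers (−0.22 each). Its value in male knockouts was 0.05, but it was called lower there with DESeq2 (−0.19, adjusted p = 0.0494). Relative to the median of all genes that Pum2 value was 0.11 with TMM and 0.12 with DESeq2.

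Whether the ribosomal over total ratio of a member changed with genotype was tested in each sex. No member passed by edgeR, DESeq2 or limma-voom, beside 3.46% of all genes in females and 0.128% in males. At an unadjusted p under 0.05 there was 1 member in females, Pabpc1 (0.57, SE 0.23, adjusted p = 0.154), and there were 2 in males, Pabpc1 (−0.62, SE 0.22, adjusted p = 0.346) and Elavl1 (0.41, SE 0.19, adjusted p = 0.543). For Cpeb3 the ratio changed by 0.02 in females (approximate 95% interval −0.29 to 0.32) and by 0.10 in males (−0.20 to 0.40).

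Other genes of the same machinery were counted from lists in the same genotype comparisons. Of 16 other CPEB, Pumilio and poly(A)-binding genes, 13 were tested in each RNA type. Of all genes, 16.8% were called in female ribosomal, 8.96% in male ribosomal, 8.49% in female total and 14.2% in male total RNA. In female ribosomal RNA 1 was higher, Pabpn1 (0.84), and 2 were lower, Cpeb4 (−0.53) and Paip2b (−0.71), an inhibitor of the poly(A)-binding protein. In male ribosomal RNA Paip2 was higher (0.40) and Cpeb1 (−0.68) and Cpeb2 (−0.56), both relatives of Cpeb3, were lower. In male total RNA Pabpn1 (−0.72) and Paip1 (−0.39) were lower. In female total RNA none passed by edgeR, with 4 at an unadjusted p under 0.05 and 1 called by DESeq2 and by limma-voom. The list's median fold change was −0.01, −0.07, −0.20 and −0.21 in female ribosomal, male ribosomal, female total and male total RNA. Pabpn1 was thus called in opposite directions in female ribosomal and male total RNA. Of these calls, Cpeb2 was lost in 22 of 36 alternatives, Paip2 in 27, Pabpn1 in female ribosomal RNA in 9, and Paip1 and Pabpn1 in male total RNA in 1 each, while Cpeb1, Cpeb4 and Paip2b were lost in none.

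Of 21 other AU-rich and 3′ end binding proteins, Ybx1 (0.78) and Ptbp1 (1.09) were higher and Auh (−0.42) was lower in female ribosomal RNA, where 19 were tested. Fmr1 (0.46) was higher in female total RNA, where 21 were tested. Beside these calls stand 16.8% of all genes in female ribosomal and 8.49% in female total RNA. The shares of all genes in males were 8.96% in ribosomal and 14.2% in total RNA. Male RNA gave 0 calls by edgeR, with 2 genes in ribosomal and 4 in total RNA at an unadjusted p under 0.05. There limma-voom called 1 in ribosomal RNA and 0 in total RNA, and DESeq2 called 0 and 2. The Auh call was lost in 6 of 36 alternatives, that of Ptbp1 in 2, that of Fmr1 in 1 and that of Ybx1 in none.

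Of 20 deadenylation genes, whose products shorten the poly(A) tail, 19 were tested in ribosomal and 20 in total RNA, and their called shares lie near or below those of all genes given above. Lower in female ribosomal RNA were 3, Tob2 (−0.67), Cnot8 (−0.56) and Cnot7 (−0.61), and Btg1 (−0.90) was lower in male ribosomal RNA. In total RNA Tob2 was lower in females (−0.42), and Cnot4 (−0.57), Pan3 (−0.49) and Tob2 (−0.37) were lower in males, with no gene of the list called higher by edgeR in these fits. In male ribosomal RNA 1 gene of the list was called higher with RLE size factors, limma-voom, DESeq2, the fits of 14 and of 56 libraries, and without the shallowest library. The list medians were 0.11, −0.08, −0.04 and −0.13 in the order given above. In male total RNA the Cnot4 and Pan3 calls were lost without those 5 total libraries, and the Tob2 call in 26 of 36 alternatives. The Btg1 call was lost in 11, the Tob2 call in female total RNA in 9 and the Cnot7 call in 4 of 36, and Cnot8 and Tob2 in female ribosomal RNA kept theirs. Of 25 decapping and exosome genes, 21 were tested in ribosomal and 23 in total RNA. Their called shares lie below those of all genes in each comparison. Dis3 (0.68) and Upf1 (0.57) were higher and Exosc7 (−0.50) lower in female ribosomal RNA, and Exosc7 (0.33) was higher and Ddx6 (−0.32) and Xrn1 (−0.43) lower in male total RNA. In male total RNA the Exosc7 call was lost in 7, that of Xrn1 in 4 and that of Ddx6 in 1 of 36 alternatives, and none of the list was called without those 5 total libraries. The female ribosomal call of Exosc7 was lost in 5, that of Dis3 in 2 and that of Upf1 in 1. In female total RNA edgeR called 0 genes of this list, with 2 at an unadjusted p under 0.05, and limma-voom and DESeq2 called 1 each. Male ribosomal RNA gave 0 calls by edgeR, limma-voom and DESeq2, with 1 gene at an unadjusted p under 0.05.

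Of 14 partners and modifiers of HuR, 2 were called in female ribosomal, 1 in male ribosomal, 1 in female total and 4 in male total RNA. Of all genes, 16.8%, 8.96%, 8.49% and 14.2% were called in that order. Among these partners Tnpo2, an import receptor that carries HuR into the nucleus, was lower in knockouts in all 4 comparisons. In male ribosomal RNA it averaged 12.1 ± 5.97 CPM in knockouts and 58.7 ± 22.8 CPM in controls (SD, n = 7 each), with a log2 fold change of −1.96 (SE 0.23, adjusted p = 1.79e-07). The changes were −1.19 in female ribosomal RNA (adjusted p = 0.000726), −0.63 in female total RNA (adjusted p = 0.0105) and −0.86 in male total RNA (adjusted p = 0.00096), and all 4 were called in every alternative. Its relative Tnpo1 was higher in female ribosomal RNA (0.60). In male total RNA Mapkapk2, a kinase of the p38 pathway, was higher (0.36), and Mdm2 (−0.41) and Mapk14 (−0.41) were lower. The Mapk14 call was lost in 13 of 36 alternatives (−0.47 to −0.19, adjusted p 0.022 to 0.515), that of Tnpo1 in 2 and that of Mdm2 in 1. In a list of 31 mRNAs known for AU-rich ends, 7 of 23 tested were called in female ribosomal RNA (3 higher, 4 lower), 3 of 23 in male ribosomal RNA (1 higher, 2 lower), 5 of 25 in female total RNA (3 higher, 2 lower) and 4 of 25 in male total RNA (2 higher, 2 lower), beside 16.8%, 8.96%, 8.49% and 14.2% of all genes in that order. The list median lay between −0.04 and 0.09. Cdkn1a, the cell cycle inhibitor p21, was lower and Ache, acetylcholinesterase of the neuromuscular junction, was higher in all 4, although its female total call (0.78, adjusted p = 0.0483) was lost in 16 of 36 alternatives (0.023 to 0.122).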

How the data were processed

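Per the labels' protocols, 500 ng of RNA per sample went into a 3′ end kit (Lexogen QuantSeq), sequenced from 1 side at 50 bases. GRCm39, HTSeq, STAR, UMI-tools and DESeq2 1.40.1 are named in the submitters' processing notes, without their order or settings. The deposited table holds whole counts per gene and library, used as deposited. Its 5 summary lines were left out, and 0 columns stayed unused. Symbols came from a gene table (52029 IDs, 97.56% of counts).

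Ribosomal and total libraries were fitted apart (28 libraries, 4 group means), and RNA types in 1 fit of 56, with edgeR 4.0.16 in R 4.3.3 (TMM, filterByExpr, quasi-likelihood F-test). Adjusted p-values are Benjamini-Hochberg values over all genes of a comparison. SE is the log2 fold change divided by the square root of F, and approximate 95% intervals are 1.96 SE. CPM values use 1 TMM scale over all 56 libraries. Alternatives used RLE factors, no filter, DESeq2 1.42.0, limma 3.58.1 (voom with sample weights), other sets of libraries, the mouse as a block and each library left out. Leaving out libraries by depth, kidney markers or reads outside genes, and the sex comparisons of the RNA ratio, were added after the data were seen. The fits were tested on simulated counts. The members and gene lists were chosen with earlier results of these data known. All 10 members are named, with 1 to 4 called genes of a list; 1 list result is not reported here.

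Ribosomal and total libraries of the same sex, genotype and number were taken as 1 mouse (28 mice, from the number the labels give). The labels' treatment text gives 14 mice of each sex and the design text 7. Male knockout total 13 is total RNA by its RNA type label, while its title reads RRNA. The mean correlation of their deviations from group means, over 500 genes, was 0.173 in female knockouts, 0.0592 in female controls, 0.192 in male knockouts and −0.166 in male controls. Libraries of a group were taken to be from separate mice, and the precision is limited by depth, with counts as low as 0 for Khsrp and Tial1 in shallow ribosomal libraries.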

Additional observations from a re-analysis of the deposited data

Results flagged for a closer look

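In 11 of 80 sets of 7 libraries (1 member in 1 group) a single library stood far from the other 6, by Dixon's criterion for 7 values, which chance alone meets in about 1 of 20 sets. In ribosomal RNA, male knockout 2, the shallowest library, held 0 CPM of Tial1 and 0 CPM of Khsrp, and male control 20 held 0 CPM of Khsrp. Pabpc1 was at 238.2 CPM in female control 18 and at 255.1 CPM in male control 20, above the other controls. Cpeb3 was at 138.9 CPM in female knockout 2, below the other female knockouts, and Zfp36l2 was at 6.265 CPM in male knockout 6, above the other male knockouts.

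In total RNA, Elavl1 was at 43.1 CPM in male knockout 2 and Khsrp at 12.82 CPM in female knockout 1, both below the rest of their groups. Female control 14, a library with over 19% of reads outside genes, was high for Tial1 (67.84 CPM) and low for Zfp36 (29.11 CPM).

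The knockout effect on ribosomal Pabpc1 differed between the sexes by −1.1851 on the log2 scale (males minus females), as reported above with its test.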

How the results depend on the processing

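Counts of members called by genotype moved as follows. In female ribosomal RNA the count was 1 in place of 2 with RLE size factors, without a filter, in the fit of 14 libraries and without the 2 libraries with kidney markers, and 0 to 2 with 1 library left out. In male ribosomal RNA it was 2 in place of 1 in the fit of all 56 libraries. In male total RNA it was 0 in place of 3 without the 5 total libraries in which reads outside genes exceeded 19% (1 to 3 with 1 library left out). It was 2 there in the fit of 14 libraries, in the fit of all 56 and without the libraries with kidney markers. In female total RNA it was 0 to 1 with 1 library left out. The count between male and female knockouts in ribosomal RNA was 3 to 4, and between male and female controls in total RNA 0 to 1, with 1 library left out. The other counts that leave-one-out fits gave did not move. Ribosomal against total RNA in male controls gave 8 in place of 5 with RLE size factors and with DESeq2. The sex difference of the RNA ratio gave 2 in place of 1 in knockouts with RLE size factors, limma-voom, DESeq2 and the mouse as a block, and 1 in place of 0 in controls with limma-voom. A call with the opposite sign arose for Pum2, ribosomal over total RNA in male knockouts, at −0.1879 with DESeq2 (−0.19, not called, with RLE size factors) against 0.05. The median of all genes in that comparison moved as well, from −0.06 with TMM to −0.31 with DESeq2. Relative to that median Pum2 was at 0.11 with TMM and at 0.12 with DESeq2. The cause of the shift in the median was not tested. Among values not called, some near 0 changed sign, such as Pabpc1 in female controls, ribosomal over total RNA (0.12, against −0.09 with RLE size factors and −0.06 with DESeq2). Called list genes kept their direction in all alternatives.

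Counts over all genes moved more than 1.5 times in these cases. Female ribosomal RNA gave 936 genes in the fit of 14 libraries and 2508 in that of 56, in place of 1533. Male ribosomal RNA gave 1749 with limma-voom and 1256 with 56 libraries, in place of 815, and 538 without male knockout ribosomal 14. Male total RNA gave 645 without the 5 total libraries and 1134 at the lowest with 1 library left out (more than 1.5 times fewer without male knockout total 14 or male control total 26 or 27), in place of 1824. The sex difference of the genotype effect in ribosomal RNA gave 626 without a filter, 684 with limma-voom, 829 with 56 libraries and 138 to 498 with 1 library left out, in place of 312 (past 1.5 times without female control ribosomal 14, 15, 18 or 19 or male knockout ribosomal 13 or 14). In total RNA it gave 4, 7, 1 and 3 genes without a filter, with DESeq2, with 56 libraries and without the 5 libraries, in place of 0. Male against female ribosomal controls gave 1874 with limma-voom and 1289 without male control ribosomal 20, in place of 694, and also moved past 1.5 times without female control ribosomal 15. The change of the RNA ratio by genotype gave 53, 37, 48 and 7 in males without a filter, with limma-voom, with DESeq2 and without the 5 libraries, in place of 16. Its sex difference in controls gave 33, 328 and 51 without a filter, with limma-voom and with DESeq2, in place of 18.

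With the mouse as a block the change of the RNA ratio by genotype in females gave 261 genes in place of 434, and its sex difference in controls 8 in place of 18. The block changed no other member's call than those given above. Replicate numbers shared by male and female knockouts belong to different mice (mean correlation 0.0403 in ribosomal and 0.0919 in total RNA). A fit with a block on them kept only the knockouts with the 5 numbers found in both sexes. It left 937 genes in place of 3063 in ribosomal RNA and 207 in place of 368 in total RNA, and gave Zfp36l1 at −0.43 (adjusted p = 0.331). The block and the dropped libraries cannot be told apart there. Depth limits the ribosomal values: all members except Cpeb3 and Pum2 had under 12 counts in the shallowest libraries.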
